A study of Mus musculus with 12 samples.

Results

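The genes described here make cholesterol and fatty acids: 28 genes, of 24245 tested, taken from a named list that runs from the enzymes of the mevalonate pathway to fatty acid synthase and includes Dhcr7, the enzyme that uses up the precursor of vitamin D. They were measured in 12 one-colour arrays of mouse colon organoids, which are stem-cell-rich epithelial cultures grown in Matrigel from isolated crypts. Crypts came from 3 wild-type and 3 VDR KO mice of the strain C57BL/6, and each mouse gave a culture with EtOH, the vehicle, and a culture with 1,25(OH)2D3 (calcitriol, the hormone form of vitamin D) at 100 nM, added again every 48 h, so that each of the 4 groups holds 3 arrays. In each genotype mouse 1 was a male of 2 months, mouse 2 a female of 3 months and mouse 3 a female of 2 months, so mouse number, age and sex cannot be told apart. The series gives the exposure as 72 h in its design text and as 62 h in the sample descriptions. How the VDR allele was inactivated is not given in the sources used here. All 28 genes had a probe that was well above background on all 12 arrays, so none was lost to the filter on dim probes.

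Cholesterol is built from acetyl-CoA through mevalonate, farnesyl diphosphate, squalene and lanosterol, and fatty acids from the same acetyl-CoA through malonyl-CoA. When membrane sterol falls, the factors SREBP-1 and SREBP-2 (genes Srebf1 and Srebf2) are released from the endoplasmic reticulum and raise most of these enzymes together, while INSIG1 holds them back. The link to vitamin D is 7-dehydrocholesterol, which DHCR7 turns into cholesterol and which sunlit skin turns into vitamin D3. The comparisons ask whether the hormone, or loss of its receptor, changed the levels of these genes in colon epithelium.

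The start regions of the genes were read from RefSeq (build GRCm38.p6), which gave 27 windows of 300 bases, from 250 bases before to 50 after a transcription start, for 22 of the 28 members. The core of the sterol regulatory element that SREBPs bind (TCACNCCAC, both strands) was in 1 of the 27 windows, that of Hmgcs1, and in 1.24% of all 32851 windows of the table. Sites spelled otherwise were not searched, so a window without a match may still hold such a site. The CCAAT box (CCAAT or, on the other strand, ATTGG), the element of the factor NF-Y that works beside SREBPs, was in 20 of the 27 windows (74.1%) and in 37.4% of all windows. A vitamin D receptor element was searched as a direct repeat with 3 bases between its hexamers, on both strands. Each hexamer could be the hexamer AGGTCA, the hexamer AGTTCA, the hexamer GGTTCA or the hexamer GGGTCA. Such a repeat was in 0 of the 27 windows and in 13 of all windows (0.04%). A window was counted once where matches overlapped, and a match describes letters only. The windows of 4 members are shown 5′ to 3′ on the gene's strand, with the sterol element core and the CCAAT boxes in capitals. Hmgcs1 (chr13:119690101-119690400, plus strand) is shown for its sterol element, which begins 137 bases before the start; Cyp51 (chr5:4104648-4104947, minus strand) and Insig1 (chr5:28071162-28071461, plus strand) because their levels differed most among mice; and Dhcr7 (chr7:143829964-143830263, plus strand, the only 1 of its 3 windows with a CCAAT box) because of its place in vitamin D metabolism.
Hmgcs1: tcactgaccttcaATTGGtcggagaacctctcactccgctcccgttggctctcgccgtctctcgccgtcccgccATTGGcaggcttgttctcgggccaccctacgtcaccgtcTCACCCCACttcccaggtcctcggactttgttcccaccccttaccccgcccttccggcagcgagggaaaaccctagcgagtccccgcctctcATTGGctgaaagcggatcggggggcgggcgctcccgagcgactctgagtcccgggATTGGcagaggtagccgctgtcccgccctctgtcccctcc
Cyp51: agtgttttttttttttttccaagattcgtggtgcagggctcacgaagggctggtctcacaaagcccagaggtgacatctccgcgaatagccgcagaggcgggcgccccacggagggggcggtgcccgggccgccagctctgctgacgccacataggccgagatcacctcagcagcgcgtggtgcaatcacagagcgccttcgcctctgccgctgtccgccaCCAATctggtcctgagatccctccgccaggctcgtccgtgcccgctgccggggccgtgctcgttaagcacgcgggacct
Insig1: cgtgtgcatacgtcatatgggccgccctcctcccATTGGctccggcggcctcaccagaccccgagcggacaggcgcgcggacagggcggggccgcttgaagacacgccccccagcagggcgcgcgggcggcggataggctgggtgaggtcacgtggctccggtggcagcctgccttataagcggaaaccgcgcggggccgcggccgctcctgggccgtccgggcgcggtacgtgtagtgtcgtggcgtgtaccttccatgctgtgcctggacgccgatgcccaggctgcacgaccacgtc
Dhcr7: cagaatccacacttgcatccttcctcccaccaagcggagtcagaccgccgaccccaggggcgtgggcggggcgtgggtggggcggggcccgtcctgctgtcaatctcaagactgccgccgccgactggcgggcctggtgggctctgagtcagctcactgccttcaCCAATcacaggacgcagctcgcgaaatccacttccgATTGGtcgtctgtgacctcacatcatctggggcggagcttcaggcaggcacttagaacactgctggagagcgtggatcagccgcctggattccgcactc

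The 75th percentile of an array's signal was 581 to 791 intensity units and its median 24.7 (VDR KO mouse 1 with EtOH) to 89.9 (wild-type mouse 2 with EtOH), and 55.0% to 72.8% of spots were well above background. In wild type the EtOH arrays of mice 1 and 2 lay on slide 2, and all other arrays on slide 3. In VDR KO the EtOH arrays of mice 1 and 2 lay on slide 1, the calcitriol array of mouse 3 on slide 2 and the rest on slide 3. Only wild-type mouse 3 had both treatments on 1 slide, so slide and treatment mostly cannot be told apart. With EtOH, mice 1 and 2 of the 2 genotypes lay on different slides. Levels below are log2 signal minus the array's 75th percentile, and no probe's level is set against another's. The response to the hormone was checked with S100g, which encodes the calcium-binding protein calbindin-D9k: its level was -0.40 ± 0.29 with EtOH and 7.10 ± 0.17 with calcitriol in wild type, and -1.41 ± 0.18 and -1.28 ± 0.13 in VDR KO (mean ± SD, n = 3 each). Cyp24a1, the enzyme that breaks calcitriol down, was well above background on all 3 calcitriol arrays of wild type and on 1 of the other 9. Vdr itself ran from 0.81 to 2.01 on the 6 wild-type arrays and from -0.43 to 0.36 on the 6 VDR KO arrays, which did not overlap (limma adjusted p of the genotype difference 0.324 with EtOH and 0.259 with calcitriol, and 0.0286 and 0.0484 with the mouse number as a block). Its probe was well above background in both; whether the probe lies in the deleted part is not given in the sources used here. All 13 colon epithelium markers were well above background on every array. Of markers of other cells, 3 of 10 for adipocytes (Plin4, Fabp4, Cidec) and 4 of 10 for immune cells were so on every array. The same held for 4 of 9 for endothelium, nerve and glia and 0 of 10 for fibroblasts and smooth muscle. Of the other adipocyte markers, Lep and Plin1 were well above background on no array, and Adipoq, Lpl, Adrb3, Retn and Cfd on some arrays but not all. The summed log2 level of the adipocyte markers was 0.67 to 1.17 with EtOH and 0.52 to 1.05 with calcitriol in wild type, and 0.70 to 1.23 and 0.76 to 0.91 in VDR KO; its part in the results was not tested. In such whole-culture RNA, fewer cells of a type and less RNA per cell cannot be told apart.

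Calcitriol moved none of the 28 genes past the threshold in wild-type organoids, where S100g differed by 7.50 on the log2 scale. In limma's moderated test with Benjamini-Hochberg adjustment over all genes (adjusted p under 0.05), 0 of 28 members and 39 genes in all were called, or 0.161% of those tested; with the mouse as a block, which sets each calcitriol culture against the EtOH culture of its own mouse, 0 of 28 and 206 genes, or 0.85%. Without mouse 2 that block fit called 26 genes and without mouse 3 it called 3422, with 0 members each time. No member had an unadjusted p under 0.05 in either fit, against 1097 and 2950 of all genes. The members' differences ran from -0.29 (Fasn) to 0.15 (Mvk) with a median of -0.05, 9 above 0 and 19 below, against a median of -0.03 over all genes. With the mouse as a block the 95% interval of 27 of 28 members lay within a 1.5-fold change either way, Fasn being the exception, against 51.9% of all genes. Without the block 21 of 28 did, against 36.1%. All genes include probes not well above background on every array, and the median SE without the block was 0.158 for members and 0.257 for all genes. This and later shares of all genes are thus not matched to the members for signal. With arrays scaled to their median in place of their 75th percentile, the median over all genes was 0.44 and that over the members 0.42, still with 0 members called. Without the block, intervals and p-values rest on the spread within the 4 groups, pooled over all 12 arrays. That fit treats the 2 arrays of a mouse as independent. With the block they rest in part on how far the calcitriol-minus-EtOH differences vary among the 3 mice, each with 1 culture per treatment. In both fits limma also moves each gene's spread toward that typical of genes at its level. An SE is thus not that of the gene's own values alone. For the member Fdft1 the 3 differences were 0.08, 0.09 and 0.08, while its SE with the block was 0.08.

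**Figure D1:**
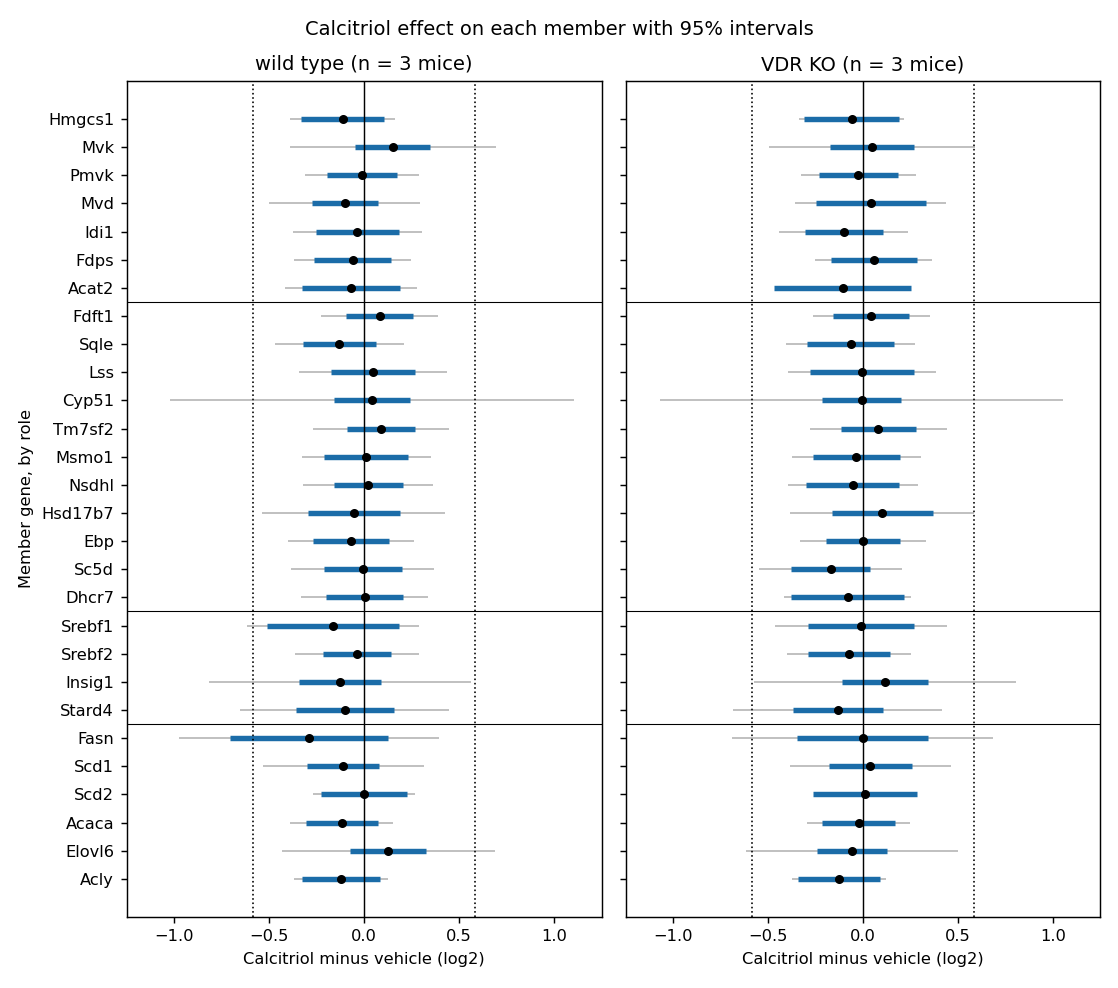
Calcitriol minus vehicle for each of the 28 members (log2), in wild-type (left) and VDR KO organoids (right), 3 mice each. Points are fitted differences, thick lines 95% intervals with the mouse as a block, thin lines 95% intervals without it, and dotted lines a 1.5-fold change. Every interval spans 0, and Fasn in wild type is the only thick line that crosses a dotted line.

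Among the 7 mevalonate and isoprenoid enzymes, Hmgcs1, which makes the HMG-CoA from which mevalonate is formed, was at 6.26, 6.40 and 6.43 with EtOH in wild-type mice 1, 2 and 3 and at 6.21, 6.13 and 6.41 with calcitriol. The groups overlapped, and the lowest value was the calcitriol culture of mouse 2. The difference was -0.11 ± 0.13 (SE of the fit without a block, as for the other member differences below). With the mouse as a block its SE was 0.09 and its 95% interval -0.33 to 0.11 (limma adjusted p = 0.645). Fdps, which makes farnesyl diphosphate, was at 6.37, 6.50 and 6.75 with EtOH and 6.36, 6.37 and 6.71 with calcitriol, so mouse 3 was highest under both. Acat2, the cytosolic thiolase of the first step, was at 0.46, 0.04 and 0.22 with EtOH and 0.23, 0.09 and 0.18 with calcitriol, a difference of -0.07 ± 0.16 within overlapping groups. The other 4 enzymes of this stretch were Mvk, mevalonate kinase, with a difference of 0.15 ± 0.25, Pmvk, the next kinase, with -0.01 ± 0.14, Mvd, which forms isopentenyl diphosphate, with -0.10 ± 0.18, and Idi1, its isomerase, with -0.04 ± 0.16.

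Of the 11 enzymes from squalene to cholesterol, Dhcr7 was at 2.09, 1.96 and 2.20 with EtOH and at 1.97, 1.98 and 2.31 with calcitriol in wild-type mice 1, 2 and 3. Its means were 2.08 ± 0.12 and 2.08 ± 0.19 (SD, n = 3), and the 95% interval of the difference with the mouse as a block was -0.20 to 0.20 (adjusted p = 0.994), a narrow interval around no change. Sqle, squalene epoxidase and a rate-limiting step, was at 5.29, 5.23 and 5.47 with EtOH and 5.16, 5.03 and 5.41 with calcitriol. It was lower with calcitriol in all 3 mice, by -0.13, -0.20 and -0.06, yet the groups overlapped and the adjusted p with the mouse as a block was 0.547. Lss, which closes squalene epoxide into lanosterol, was at 2.53, 2.81 and 3.02 with EtOH and 2.71, 2.64 and 3.14 with calcitriol, highest in mouse 3 under both. Sc5d, the desaturase just before Dhcr7, was at 3.86, 3.66 and 3.85 and then 3.76, 3.57 and 4.02. Differences for these genes were 0.05 ± 0.18 and -0.01 ± 0.17. Hsd17b7, the ketoreductase that acts during removal of the lanosterol methyl groups, was at 0.74, 1.43 and 1.33 with EtOH and 0.73, 1.17 and 1.43 with calcitriol, lowest in mouse 1 under both. Cyp51, lanosterol demethylase, differed by 0.04 ± 0.49, the widest error of the list without a block, and by 0.04 with a 95% interval of -0.16 to 0.24 with it. The other 5 enzymes (Fdft1, squalene synthase, and Tm7sf2, Msmo1, Nsdhl and Ebp, which work on the sterol ring and its methyl groups) differed by 0.09 at most in either direction.

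The 4 regulators and carriers gave the only member whose 2 groups of arrays did not overlap. Srebf1, the SREBP-1 gene, was at -1.16, -1.05 and -1.11 with EtOH and at -1.22, -1.43 and -1.17 with calcitriol in wild-type mice 1, 2 and 3. All 3 calcitriol values were below all 3 EtOH values, but the gap was 0.06 in mice 1 and 3 and 0.38 in mouse 2, and the difference of -0.16 ± 0.21 did not pass (adjusted p = 0.676 with the mouse as a block). That made 1 of 28 members without overlap, against 8.89% of all genes in this comparison. Insig1, the brake on SREBP release, was at 1.50, 1.19 and 1.19 with EtOH and 1.30, 1.19 and 1.01 with calcitriol, a difference of -0.13 ± 0.32. Srebf2, which drives the sterol enzymes, was at 2.67, 2.52 and 2.44 with EtOH and at 2.65, 2.50 and 2.37 with calcitriol. It kept the same order of mice under both, and the difference was -0.04 ± 0.15. Stard4, which carries sterol between membranes, differed by -0.10 ± 0.25.

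Of the 6 fatty acid enzymes, Fasn, fatty acid synthase, varied most between cultures of 1 mouse. It was at -0.96, 0.23 and -0.32 with EtOH and at -1.07, -0.57 and -0.29 with calcitriol in wild-type mice 1, 2 and 3. Its difference of -0.29 ± 0.31 came from mouse 2 alone, whose EtOH array was the highest of all 12, and mice 1 and 3 differed by -0.11 and 0.03. That array also had the largest share of spots above background of the 12, 72.8%, whose part in the value was not tested. Acly, which makes cytosolic acetyl-CoA, was at 5.31, 5.33 and 5.37 with EtOH and 5.24, 5.07 and 5.34 with calcitriol. Acaca, the carboxylase that forms malonyl-CoA, was at 3.32, 3.60 and 3.63 and then 3.25, 3.36 and 3.58, and Scd1, the desaturase that makes oleate, at 2.96, 2.97 and 3.27 and then 2.94, 2.76 and 3.18. Each of these 3 genes was lower with calcitriol in every mouse, with differences of -0.12 ± 0.11, -0.12 ± 0.12 and -0.11 ± 0.19, but the groups overlapped and none passed. Elovl6 differed by 0.13 ± 0.26, and Scd2, a second desaturase, by -0.0016 ± 0.12.

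Of the 28 members, 11 had 2 or 3 probes, and the brightest stood for the gene. The other 12 probes gave wild-type differences from -0.36 (Acaca) to 0.46 (Fdft1, whose second probe was above background on 8 of 12 arrays). For 4 members (Hmgcs1, Hsd17b7, Mvk and Srebf2) the probes of the gene had differences of opposite sign in wild type. The second Hmgcs1 probe, for example, differed by 0.22. In VDR KO the same held for 6 members (Acaca, Acly, Hsd17b7, Nsdhl, Pmvk and Srebf2).

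In VDR KO organoids calcitriol likewise moved no member past the threshold, and no gene at all was called (0% of those tested, with or without the mouse as a block, although 1395 and 1371 genes had an unadjusted p under 0.05 in limma). Without mouse 3 the block fit called 4121 genes and again 0 members. No member had an unadjusted p under 0.05 in either fit. The differences ran from -0.17 (Sc5d) to 0.11 (Insig1) with a median of -0.02, against 0.04 over all genes, and all 28 block intervals lay within 1.5-fold, against 52.1% of all genes. All 28 members overlapped between the 2 groups, where 7.48% of all genes did not. Hmgcs1 was at 6.28, 6.27 and 6.48 with EtOH and at 6.31, 6.07 and 6.48 with calcitriol, and Dhcr7 at 2.14, 2.10 and 2.14 and then 1.99, 1.81 and 2.33. In both genes the lowest value was the calcitriol culture of mouse 2. Sqle was at 5.54, 5.07 and 5.39 with EtOH and 5.34, 5.03 and 5.43 with calcitriol, Fdps at 6.45, 6.25 and 6.56 and then 6.54, 6.31 and 6.58, and Sc5d at 3.96, 3.64 and 4.03 and then 3.74, 3.39 and 3.99. All 3 were lowest in mouse 2. Srebf2 was at 2.89, 2.51 and 2.41 with EtOH and 2.68, 2.45 and 2.45 with calcitriol, highest in mouse 1. The fatty acid enzyme Fasn was at -0.89, -0.19 and -0.89 with EtOH and -0.92, -0.42 and -0.64 with calcitriol, highest in mouse 2 under both. Scd1 was at 3.03, 2.74 and 3.23 and then 2.97, 2.73 and 3.42, Acly at 5.57, 5.29 and 5.43 and then 5.45, 5.24 and 5.22, and Acaca at 3.51, 3.49 and 3.51 and then 3.45, 3.42 and 3.57. Acaca stayed within the narrowest band of these, and Acly alone of the 3 was lower with calcitriol in every mouse, with a mean difference of -0.13 ± 0.11. The second, dimmer Acly probe gave 0.03, and the other Acaca probes gave 0.21 and 0.11. Acat2 was at 0.30, 0.42 and 0.10 with EtOH and 0.37, -0.04 and 0.17 with calcitriol, and mouse 2 gave both its highest and its lowest value.

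The calcitriol effect was not shown to differ between genotypes for any member. The test of that difference called 0 of 28 members and 0.0289% of all genes without a block, and 0 of 28 and 0.239% (58 genes, 20 to 55 without 1 mouse) with the mouse as a block, and no member reached an unadjusted p of 0.05 in either fit, where 821 and 1946 of all genes did. The differences between effects ran from -0.29 (Fasn) to 0.19, with a median of 0.01, against -0.07 over all genes. Insig1 differed by -0.24 ± 0.45, with a 95% interval of -0.51 to 0.03 with the mouse as a block and an adjusted p of 0.649 in that fit, the lowest of the list.

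Loss of the receptor moved no member past the threshold either. Between VDR KO and wild type, 0 of 28 members were called with EtOH, where 0.00412% of all genes were (with or without the number of the mouse as a block), and 0 of 28 with calcitriol, where 0.206% were without and 0.528% with that block. Without the block no member had an unadjusted p under 0.05 (2121 of all genes with EtOH, 725 with calcitriol). With it 1 member did with EtOH, Hsd17b7, and 2 with calcitriol, Lss and Srebf1, where 3494 and 1997 of the 24245 genes did. Without mouse 1 and without mouse 3 the block fit with calcitriol called 28 and 506 genes in place of 128, and 0 members; with EtOH it called 4 without mouse 2 and 5 without mouse 3 in place of 1, and 0 members. All 28 members overlapped in both comparisons, where 8.17% and 7.39% of all genes did not. The members' medians were -0.02 with EtOH and -0.01 with calcitriol, against -0.06 and 0.01 over all genes.

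Srebf1 gave the largest positive difference between genotypes, 0.27 ± 0.21 with EtOH and 0.42 ± 0.21 with calcitriol. The VDR KO arrays were at -1.21, -0.79 and -0.53 with EtOH and -1.17, -0.84 and -0.55 with calcitriol in mice 1, 2 and 3. Mouse 1 lay among the wild-type values and mice 2 and 3 above all of them, and the adjusted p with the block was 0.468 and 0.574. Hsd17b7 was at 0.65, 1.03 and 0.70 with EtOH and 0.71, 0.98 and 1.00 with calcitriol in VDR KO, against the wild-type values above. The difference was -0.37 ± 0.22 with EtOH (adjusted p with the block 0.32) and -0.21 ± 0.22 with calcitriol, while the second Hsd17b7 probe gave -0.08 and -0.27. Lss was at 2.80, 2.41 and 2.50 with EtOH and 2.59, 2.38 and 2.72 with calcitriol in VDR KO, a difference from wild type of -0.21 ± 0.18 and -0.27 ± 0.18. The largest negative difference was that of Cyp51, -0.74 ± 0.49 with EtOH and -0.79 ± 0.49 with calcitriol, and it rested on mouse 3. Without the EtOH array of wild-type mouse 3 it was -0.41, and without that of VDR KO mouse 3 it was -0.31. With the slide as a block it was -2.39 and within the largest slide, which holds the EtOH array of mouse 3 alone for each genotype, -2.27, none past the threshold. Scaling to the median put the EtOH differences of Cyp51, Hsd17b7 and Lss at 0.02, 0.39 and 0.55 and the median over all genes at 0.70, so relative to all genes they stayed low, while their sign turned.

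Some members differed among mice, though how many passed a test depended on the processing. Cyp51 was at 1.42 with EtOH and 1.49 with calcitriol in wild-type mouse 1, at 1.31 and 1.25 in mouse 2 and at 2.36 and 2.47 in mouse 3. In VDR KO it was at 1.58 and 1.56 in mouse 1, at 1.20 and 1.23 in mouse 2 and at 0.08 and 0.05 in mouse 3. Wild-type mouse 3 was thus the highest and VDR KO mouse 3 the lowest of the 6, 5.10-fold apart in their means, while the cultures of no mouse differed by more than 0.12. The arrays of VDR KO mouse 3 lay on slide 3 (EtOH) and slide 2 (calcitriol), and the part of the slide in these values was not tested. Insig1 was at 1.95 and 1.93 in VDR KO mouse 1, against 0.71 and 0.92 in mouse 2 and 0.94 and 1.10 in mouse 3. VDR KO mouse 1 was above every other array for this gene. Elovl6, the elongase that makes stearate, was at 2.20 and 2.45, 2.70 and 2.69, and 3.09 and 3.22 in wild-type mice 1, 2 and 3, and at 2.49 and 2.40, 2.61 and 2.61, and 3.02 and 2.94 in the VDR KO mice. Mouse 3 was highest and mouse 1 lowest in both genotypes.

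**Figure D2:**
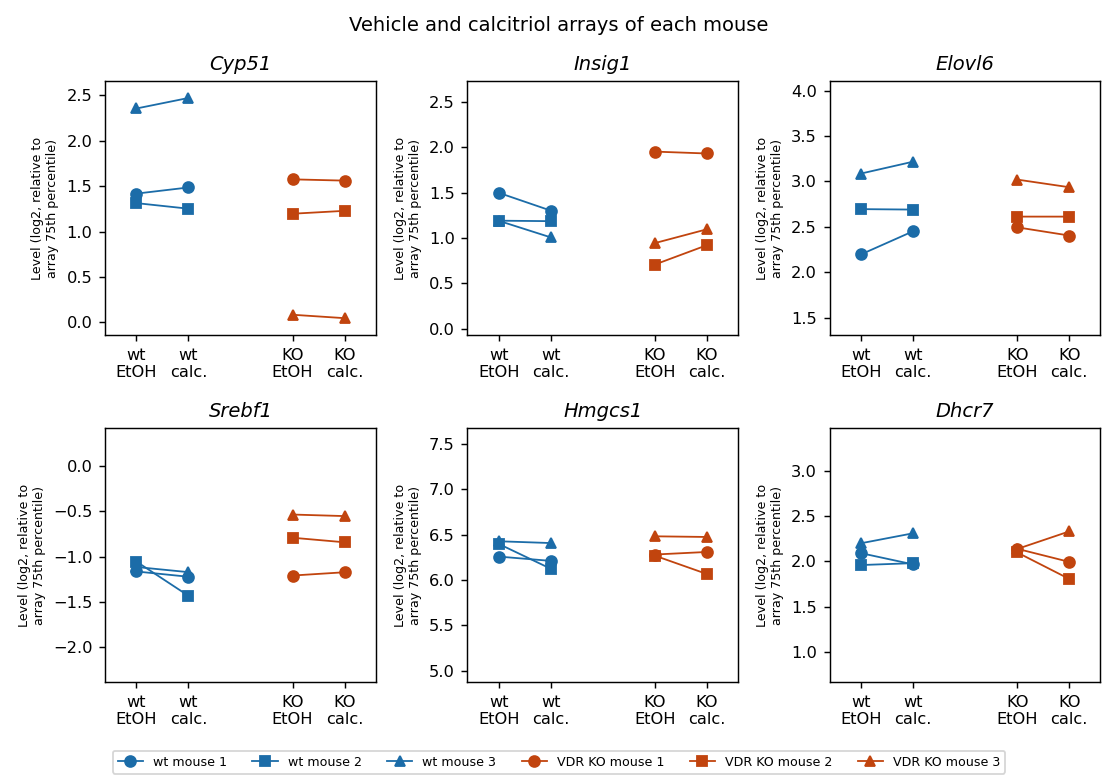
Levels of Cyp51, Insig1, Elovl6, Srebf1, Hmgcs1 and Dhcr7 on each array (log2, relative to the array's 75th percentile; every panel spans the same number of log2 units). A line joins the EtOH and calcitriol arrays of 1 mouse, blue for wild type and orange for VDR KO; Cyp51 shows wild-type mouse 3 at 2.36 and 2.47 and VDR KO mouse 3 at 0.08 and 0.05.

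A moderated F test in limma among the 3 mice of a genotype, with the treatment as a term, was added, and the genes above chosen, after these values were seen. It called 7 of 28 members among wild-type mice (15.2% of all genes were called) and 14 of 28 among VDR KO mice (17.8% of all genes), 4 of them in both. Of 90 other genes of the same pathways it called 28 (31.1%) among wild-type mice and 25 (27.8%) among VDR KO mice. Among wild-type mice the adjusted p was 0.00164 for Cyp51, 0.00458 for Elovl6 and 0.00477 for Mvk, and Hsd17b7, Ebp, Tm7sf2 and Stard4 also passed. Among VDR KO mice it was 0.000536 for Cyp51, 0.00166 for Insig1, 0.015 for Scd1 and 0.016 for Elovl6, and all 4 regulators and carriers and 6 of the 11 enzymes from squalene to cholesterol passed. Scaling arrays to their median left 0 members called in either genotype (4.33% and 2.66% of all genes), with adjusted p for Cyp51 of 0.152 and 0.089, and fits without the variance trend called 3 and 2 (7.72% and 8.67% of all genes). Without mouse 1 the counts were 1 and 1 (0.887% and 2.69%), without mouse 2 they were 3 and 2 (3.58% and 1.23%), and without mouse 3 they were 5 and 13 (22.6% and 24.7%). Among only probes well above background on all arrays they were 8 and 14 (19.9% and 23.5% of all such genes).

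Mouse means, taken over both genotypes, spanned more than treatment differences did in nearly every member. The means of the 6 mice spanned a range larger than the largest vehicle-to-calcitriol difference of any mouse in 27 of 28 members (96.4%), all but Acat2, and in 55.1% of all genes. That range also holds any difference between the genotypes. Within each genotype alone the range was smaller than that largest difference for some of the 27, such as Acly (0.16 in wild type and 0.25 in VDR KO, against 0.26). Over the members the median range was 0.45 and the median of the largest treatment difference 0.22, against 0.66 and 0.52 over all genes. Dhcr7 and Hmgcs1 had among the narrowest ranges, 0.30 and 0.31, and Cyp51 (2.35) and Insig1 (1.13) the widest.

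**Figure D3:**
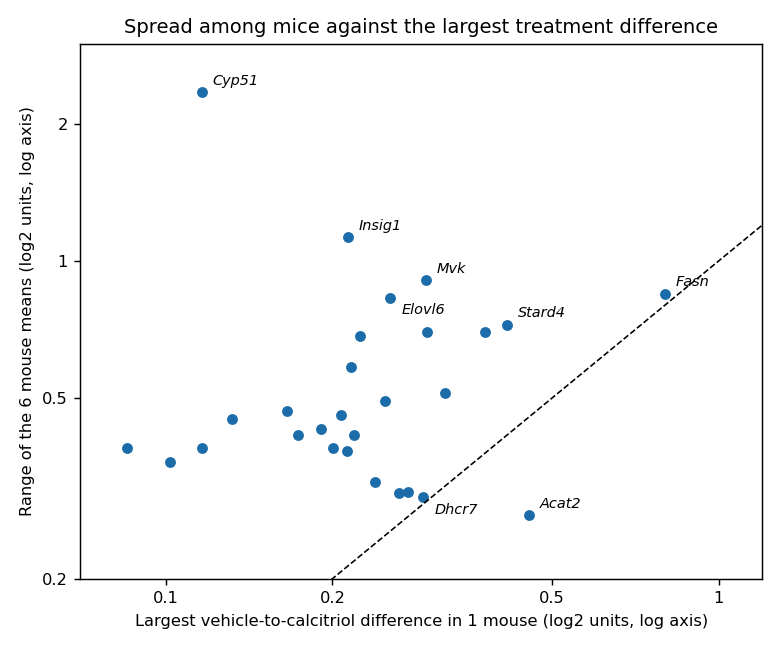
Range of the 6 mouse means, over both genotypes, against the largest difference between the EtOH and calcitriol cultures of 1 mouse, for each of the 28 members (log2 units, both axes logarithmic). The dashed line marks equality; only Acat2 lies below it, and Cyp51, with a range of 2.35 and a largest treatment difference of 0.12, lies farthest above.

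In some mice the sterol enzymes were high or low together, and the fatty acid enzymes went the same way. In wild-type mouse 3, 18 of the 18 enzymes of the mevalonate and cholesterol steps were above their 12-array mean with EtOH and 17 with calcitriol, by a median of 0.20 and 0.23. In VDR KO mouse 2, 3 of the 18 were above it with EtOH and 0 with calcitriol, with medians of -0.16 and -0.24. The median over the 6 fatty acid enzymes on the same 4 arrays was 0.21, 0.14, -0.06 and -0.09, and that over all genes 0.07, 0.06, -0.11 and 0.02. Individual genes departed from this: in VDR KO mouse 3, where 19 and 21 of the 28 members were above their means, Cyp51 was at its lowest. These values are a description, since the genes of an array share its RNA and its scaling, and were not tested.

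**Figure D4:**
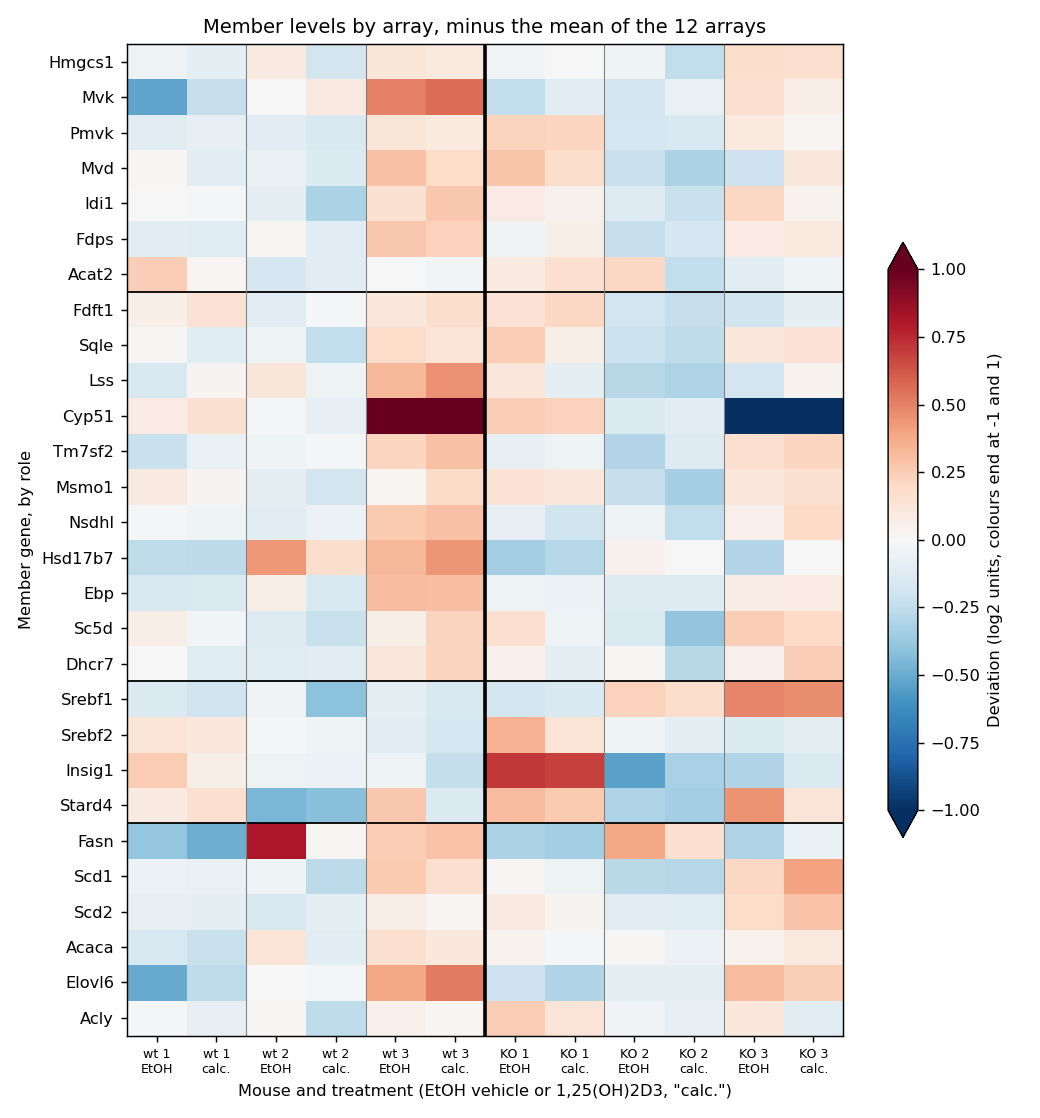
Level of each member on each array minus its mean over the 12 arrays (log2 units; red above, blue below, colours end at -1 and 1), with the EtOH and calcitriol arrays of a mouse side by side and genes grouped by role. Paired columns look alike; wild-type mouse 3 is mostly red (25 and 23 of 28 members above their means) and VDR KO mouse 2 mostly blue (6 and 2 of 28 above).

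Of 100 other genes of the same pathways, 90 were tested and 0 were called in any of the 5 comparisons without a block, where at most 0.206% of all genes were. For calcitriol in wild type, 4 of the 90 had an unadjusted p under 0.05 in limma, against 1097 of all 24245 genes, a similar share. Scap, the escort of SREBPs, differed for calcitriol in wild type by 0.04 ± 0.14. With the mouse as a block 2 of the 90 were called for calcitriol in wild type, both higher, against 206 of all 24245 genes (0.85%). Acacb, the carboxylase whose malonyl-CoA limits entry of fatty acids into mitochondria, was at -0.19, -0.18 and 0.48 with EtOH and at 0.60, 0.61 and 1.39 with calcitriol. Every mouse was higher with the hormone, by 0.83 on average (adjusted p = 0.0133 with the block, 0.9999 without), but the mean of its 2 probes gave 0.47. Mogat2, which rebuilds triglyceride from absorbed monoacylglycerol, was at 1.61, 1.13 and 1.47 with EtOH and 2.24, 1.93 and 2.10 with calcitriol, a mean difference of 0.69 (adjusted p = 0.0162 with the block, 0.9999 without). For neither did the difference between genotypes pass, with adjusted p of 0.0619 and 0.249 with the block.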

How the data were processed

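Total RNA was labelled with Cy3 and hybridised to Agilent one-colour arrays, and the deposited processed signal is an intensity per spot, made with Agilent Feature Extraction 11.5.1.1 per the file headers. The authors' further steps are not given in the sources used here. Control spots and outlier spots were left out, log2 of the processed signal was taken and each array's 75th percentile subtracted. A probe was kept where every array of 1 or more groups had it well above background, and the brightest probe stood for a gene, named through RefSeq accessions. A 4-group model was fitted to the 12 arrays (limma 3.58.1, R 4.3.3, empirical Bayes with trend) and p-values were adjusted over 24245 genes; the code was tested on simulated data. As alternatives the background, scaling, filter, probe rule, slide, mouse and left-out arrays were varied; the files hold no mean signal, so normexp was run on the median signal. Cultures of the same number came from the same mouse, and their deviations from group means correlated at 0.103 to 0.589 within a genotype; same-numbered mice of the 2 genotypes share age and sex and correlated at 0.135 to 0.637, so the number was used as a block. Members, gene lists and tests were chosen with earlier results of these data known. By rule, values on every array are given for members called with or without the block, for the 3 members of smallest unadjusted p in each comparison and always for Dhcr7, Srebf1, Srebf2, Insig1, Hmgcs1, Sqle, Fasn and Scd1; of other pathway genes, those called and Scap are named (others that the rule names are not reported here), and Vdr, Cyp24a1 and S100g serve as checks. Promoter windows are from RefSeq, GRCm38.p6. The number of arrays limits the precision.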

Additional observations from a re-analysis of the deposited data

Results flagged for a closer look

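S100g, the calcium-binding check gene, was singled out because its calcitriol effect differed between genotypes by 7.37 ± 0.24 (SE) on the log2 scale, wild type minus VDR KO (limma adjusted p = 3.8e-08). Fdps was singled out because its calcitriol-minus-EtOH values were below 0 in each wild-type mouse, at -0.02, -0.13 and -0.04, and above 0 in each VDR KO mouse, at 0.09, 0.06 and 0.02. The difference of the effects, -0.12 ± 0.20, did not pass the test (limma adjusted p = 0.9998, and 0.79 with the mouse as a block).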

How the results depend on the processing

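No member was called in any of the 5 comparisons under any alternative run, and with the replicate block (the mouse as a block) the count stayed at 0 for each. The block called 2 of 90 other pathway genes for calcitriol in wild type (0.85% of all genes), against 0 without it (0.161% of all genes). The lower Vdr of VDR KO passed with the block under both treatments, against neither without it. The block changed no other call of a gene named. The members' median difference moved as follows. For calcitriol in wild type it was -0.085 with quantile normalization, 0.42 with scaling to the median (all genes 0.44), -0.0071 with the mean of all probes, -0.18 within the largest slide, and -0.12 to 0.028 without 1 array. For calcitriol in VDR KO it was -0.31 with scaling to the median (all genes -0.25), -0.10 with the slide as a block, -0.19 within the largest slide, and -0.084 to 0.048 without 1 array. For the difference of the effects it was 0.77 with scaling to the median (all genes 0.69), -0.083 within the largest slide, and -0.10 to 0.073 without 1 array. Between genotypes with EtOH it was 0.75 with scaling to the median (all genes 0.70). Scaling to the median thus moved members and all genes alike. The count of members that differed among mice was the least stable: among wild-type mice it was 0 with scaling to the median, 3 without the variance trend and 1 to 5 without 1 mouse (0.887% to 22.6% of all genes); among VDR KO mice it was 9 with normexp, 9 with quantile normalization, 0 with scaling to the median, 8 with no filter, 2 without the variance trend and 1 to 13 without 1 mouse (1.23% to 24.7% of all genes). The share of all genes called moved over the same settings, to 4.33% and 2.66% with scaling to the median and 7.72% and 8.67% without the variance trend. Among VDR KO mice it was 16.7% with normexp, 15.2% with quantile normalization and 9.81% with no filter. The causes were not tested. The probe used for each member was well above background on all 12 arrays.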
